A study of Rattus norvegicus with 6 samples.

Results

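The genes described here carry cells from G1 through DNA replication into mitosis. They were 37 named rat genes, 10 of G1, 14 of S phase and 13 of mitosis, taken from an array study of 20734 mRNA table rows by matching each row's RefSeq transcript to the gene. Of the 37, 35 were found and tested, namely 10 G1, 13 S-phase and 12 mitotic genes, and Mcm5 and Top2a were not analysed here. In all 19982 mRNA genes were tested, where a table row without a gene name counted as a gene of its own. The cells were ventricular cardiomyocytes of Sprague-Dawley rats aged 1 to 3 days, freed of many fibroblasts by letting these attach first, plated in serum for 24 h and then kept without serum for 24 h. The control group stayed untreated, and the other group received 10 µM isoproterenol, a beta-adrenergic agonist used to induce hypertrophic growth, for 24 h. Each group had 3 arrays. The labels also mention passaged cells, and the protocol given for these primary cells describes no passage. No label links a replicate to its own litter or culture, so p-values measure only the spread between these samples.

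A cell enters S phase when D-type cyclins with Cdk4 and Cdk6, followed by E-type cyclins with Cdk2, phosphorylate the retinoblastoma protein and release E2F factors, which switch on the genes of the replication machinery. Origins are licensed in G1 by the origin recognition complex, Cdc6 and Cdt1, which load the Mcm2 to Mcm7 helicase, and mitotic genes are switched on later through promoter elements that include the cell cycle genes homology region (CHR) and CCAAT boxes. Cardiomyocytes leave the cell cycle soon after birth and often replicate DNA without dividing, while fibroblasts and other cells in the same culture can keep dividing.

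Promoter windows were searched for elements known in cell cycle genes. A 300-base window around the start site (250 bases before it and 50 after it, RefSeq, assembly GRCr8) was found for 23 of the 35 genes, 4 of G1, 9 of S phase and 10 of mitosis. In several windows, those of Mcm2, Mcm7, Mki67, Birc5 and Cdk1 among them, the annotated gene begins upstream of this start site. Part of the bases before the start then lies within the gene, and strings there were counted too. The windows were searched on both strands for the E2F strings TTTGGCGC, TTTCCCGC, TTTCGCGC and TTTGCCGC, the CHR string TTTGAA or its variant TTCGAA, the box CCAAT, the cAMP response element (CRE) TGACGTCA, the shorter part of that element TGACG, and the E-box CACGTG. An E2F string stood in 6 of 9 S-phase windows, 1 of 10 mitotic windows and 0 of 4 G1 windows, beside 2.14% of 33469 promoters of all genes. A CHR string stood in 7 of 10 mitotic windows, 3 of 9 S-phase windows and 0 of 4 G1 windows, beside 19.7% of all promoters. CCAAT stood in 14 of the 23 windows beside 37.5% of all promoters. The full CRE, the element bound by the cAMP-responsive factor Creb, stood in 0 of the 23 windows beside 1.83% of all promoters, and its part TGACG in 7 of 23 beside 21.2%. The E-box, to which Myc binds, stood in 2 of 23, Mcm2 and Cdk4, beside 6.42%. Of the S-phase genes with an E2F string (Mcm2, Mcm3, Mcm6, Mcm7, Tyms and Cdt1) Mcm6 rose with isoproterenol. Of the mitotic genes with a CHR string (Plk1, Mki67, Bub1b, Cdc20, Ccnb2, Birc5 and Cdk1) Birc5 and Cdk1 rose. The test, given with the counts, called 10.1% of all genes higher. Tk1 and Ccnb1 also rose, and their windows held neither string. For Orc1, Cdc6, Ccnd1 and Cdk6, which rose too, no window was found. Ccna2, the remaining gene that rose, was not among the genes with either string. The string matches describe letters, not binding.

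The following 4 windows show the E2F pattern in a helicase gene, both elements together in Cdk1, the CHR pattern in Cdc20 and CCAAT boxes without either element in Ccnb1. Each runs 5′ to 3′ along the gene's strand from position -200, counted with the start site as 0, and capitals mark E2F and CHR strings. Mcm6 (chr13:42404353-42404552, minus strand), Cdc20 (chr5:137255800-137255999, minus strand) and Ccnb1 (chr2:33655226-33655425, minus strand) run up to the base before the start. Cdk1 (chr20:19265093-19265251, plus strand) ends at -42, since the annotated gene begins upstream of that start site.
Mcm6: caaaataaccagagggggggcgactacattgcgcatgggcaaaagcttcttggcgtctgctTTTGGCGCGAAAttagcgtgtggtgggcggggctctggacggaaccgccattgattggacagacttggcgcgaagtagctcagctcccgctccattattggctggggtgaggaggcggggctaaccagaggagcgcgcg
Cdk1: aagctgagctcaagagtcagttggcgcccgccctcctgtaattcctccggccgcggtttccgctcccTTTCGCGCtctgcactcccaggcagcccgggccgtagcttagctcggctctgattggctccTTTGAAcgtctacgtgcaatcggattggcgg
Cdc20: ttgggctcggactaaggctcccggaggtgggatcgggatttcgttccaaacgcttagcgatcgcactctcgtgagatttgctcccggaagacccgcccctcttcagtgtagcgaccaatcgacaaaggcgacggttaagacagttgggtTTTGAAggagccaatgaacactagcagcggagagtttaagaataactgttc
Ccnb1: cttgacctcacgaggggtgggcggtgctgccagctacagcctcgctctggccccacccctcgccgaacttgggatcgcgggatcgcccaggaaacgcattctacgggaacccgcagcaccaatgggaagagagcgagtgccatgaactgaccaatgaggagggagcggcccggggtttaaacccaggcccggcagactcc
In Mcm6 a forward TTTGGCGC and a reverse TTTCGCGC overlap, so the capitals run through both. In Cdk1 the E2F string began at -133 and the printed CHR string at -72, and in Cdc20 the CHR string began at -51, between CCAAT boxes at -86 and -41. Ccnb1 held CCAAT boxes at -82 and -50.

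Arrays measured RNA as scanner intensity, given here as log2 of the processed signal minus each array's 75th percentile. Arrays with the same scan time in the file headers were taken as sharing a slide, so the slides are inferred. On control 1 to 3 and isoproterenol 1, which shared slide 1 by this rule, between 97.6% and 99.8% of mRNA probes were well above background. On isoproterenol 2 and 3, which shared slide 2, it was 61.2% and 70.8%, and the median negative-control signal was 87 and 84 scanner units against 27 to 30 on slide 1. The spread between treated arrays therefore includes a difference between slides, and on slide 2 treatment and slide cannot be told apart. Results for the 35 genes stand beside their values within slide 1, isoproterenol 1 minus the mean of the 3 controls, where the lone treated array is assumed to vary like the controls. Of the 35 genes, 32 were well above background on all 6 arrays, and the exceptions were Ccne1 (1 of 3 isoproterenol arrays), Mki67 (2 of 3) and Aurka (2 of 3).

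Over the 6 arrays 10 of the 35 genes rose with isoproterenol, 0 fell and 25 did not pass (limma's moderated test over all 19982 genes, two-sided, Benjamini-Hochberg adjusted p under 0.05). Changes are log2 differences of group means (treated less control, n = 3 each) ± the SE from limma. Of all genes tested 10.1% rose and 5.86% fell. An unadjusted p under 0.05 was found for 17 of the 35 and for 35.9% of all genes tested. The change was above 0 in 32 of 35 genes and in 54.0% of all genes, with a median of 0.61 on the log2 scale beside 0.07 over all genes tested. By class, 2 of 10 G1 genes rose (Ccnd1, Cdk6; class median change 0.71), 4 of 13 S-phase genes (Orc1, Cdc6, Mcm6, Tk1; 0.90) and 4 of 12 mitotic genes (Ccna2, Birc5, Cdk1, Ccnb1; 0.43). The 3 isoproterenol arrays lay above the 3 controls, with no overlap, in 18 of 35 genes, 4 of G1, 9 of S phase and 5 of mitosis, and below them in 0. Over all genes tested this held for 25.6% upward and 15.8% downward. Leaving out control 1, 2 or 3 left 5, 4 or 2 of the 35 called higher, beside 4.25%, 1.37% or 1.02% of all genes. Leaving out isoproterenol 2 or 3 left 4 or 3, beside 3.44% or 2.14%. Leaving out isoproterenol 1, which puts the groups on different slides, gave 21 of the 35 called higher, beside 29.3% of all genes. In that setting 1 of the 35 was called lower, Ccne1 (change -1.51, limma, adjusted p = 0.00793), beside 4519 of the 19982 genes. The plot of each gene on each array shows the classes side by side.

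**Figure D1:**
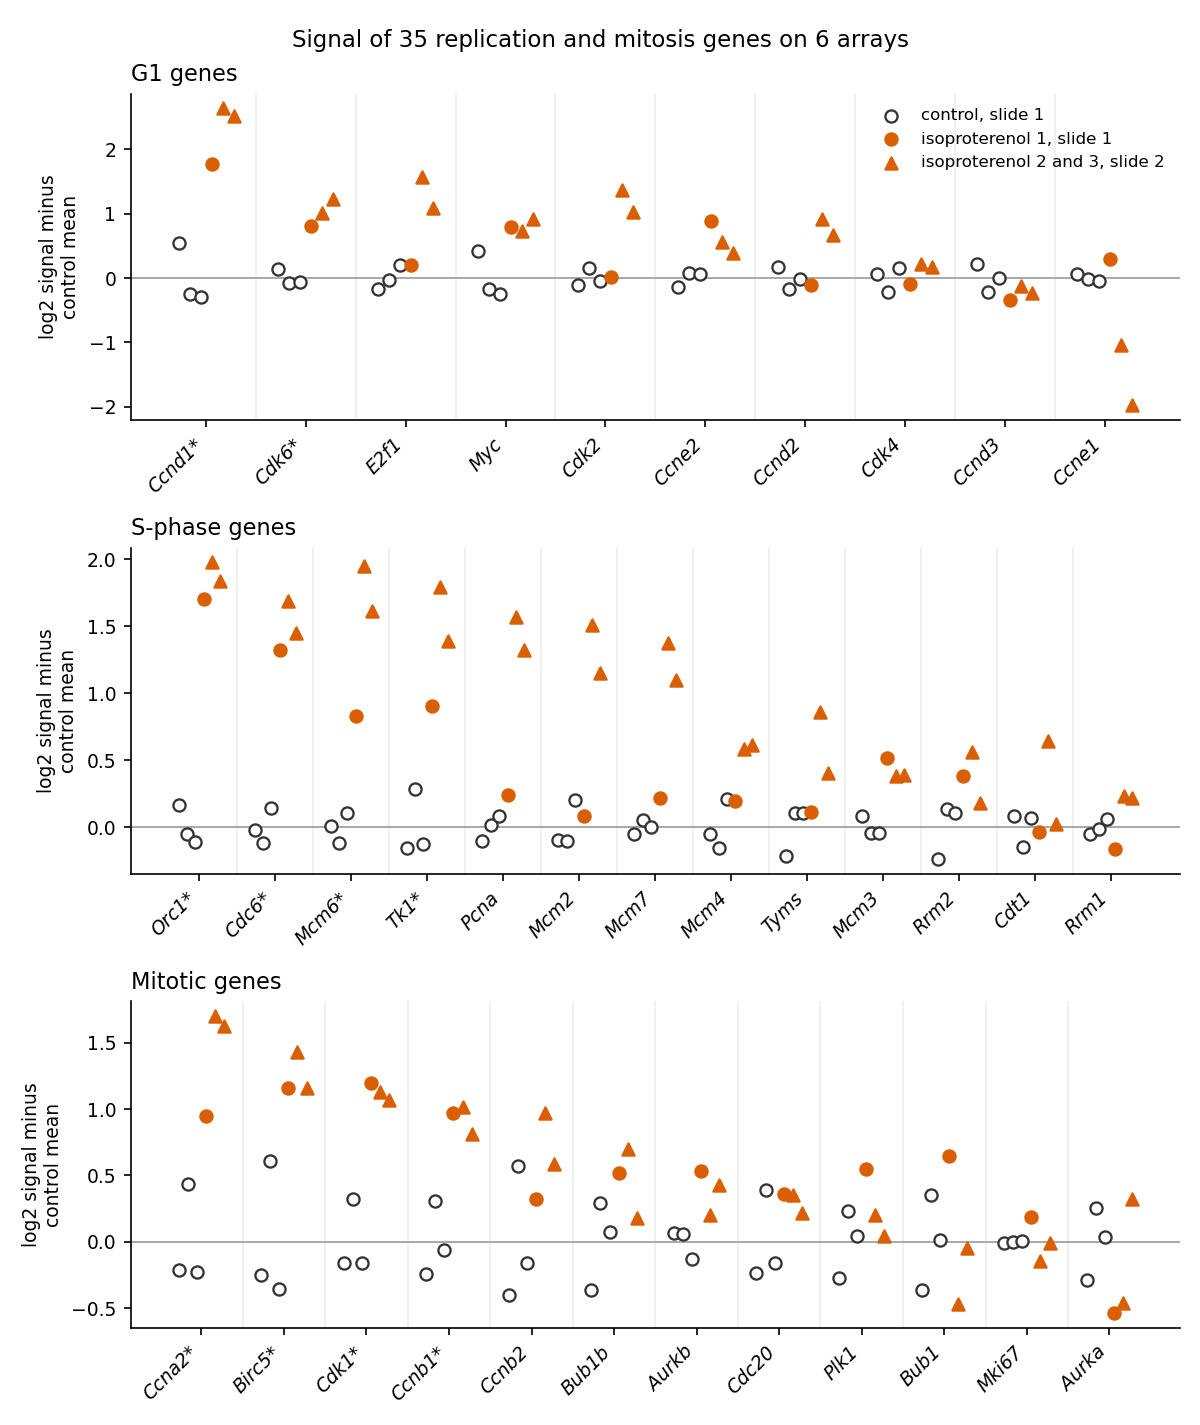
Log2 signal of the 35 genes on each of 6 arrays, minus the mean of the 3 controls, by class and in order of change. Open circles are controls, filled circles isoproterenol 1 on the same slide, triangles isoproterenol 2 and 3 on slide 2, and an asterisk marks the 10 genes with an adjusted p under 0.05. For Orc1 and Cdk1 all 3 treated arrays lie together above the controls, whereas for Pcna and Mcm2 the triangles stand on average 1.21 and 1.24 log2 units above the filled circle.

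Within slide 1, 2 of the 35 genes passed, Orc1 and Cdc6, both of S phase, where 2.41% of all genes passed upward. An unadjusted p under 0.05 was found in 13 of 35, 3 of G1, 5 of S phase and 5 of mitosis, and in 28.8% of all genes. The change was above 0 in 29 of 35 and in 59.0% of all genes. Isoproterenol 1 lay above all 3 controls in 23 genes, 5 of G1, 9 of S phase and 9 of mitosis, and below all 3 in 3, beside 45.7% above and 29.7% below over all genes tested. With the slide as a term in the fit over all 6 arrays, whose change likewise rests on isoproterenol 1 against the controls and equals that within slide 1, 5 genes passed, Orc1, Cdc6, Ccnd1, Cdk1 and Ccne2, where 3.56% of all genes passed upward. The class medians within slide 1 were 0.25 for G1, 0.24 for S phase and 0.54 for mitosis, beside 0.11 over all genes. The S-phase median was thus 0.90 over all arrays and 0.24 within slide 1, while the mitotic median was 0.43 and 0.54. The difference between the classes in this respect was not tested.

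**Figure D2:**
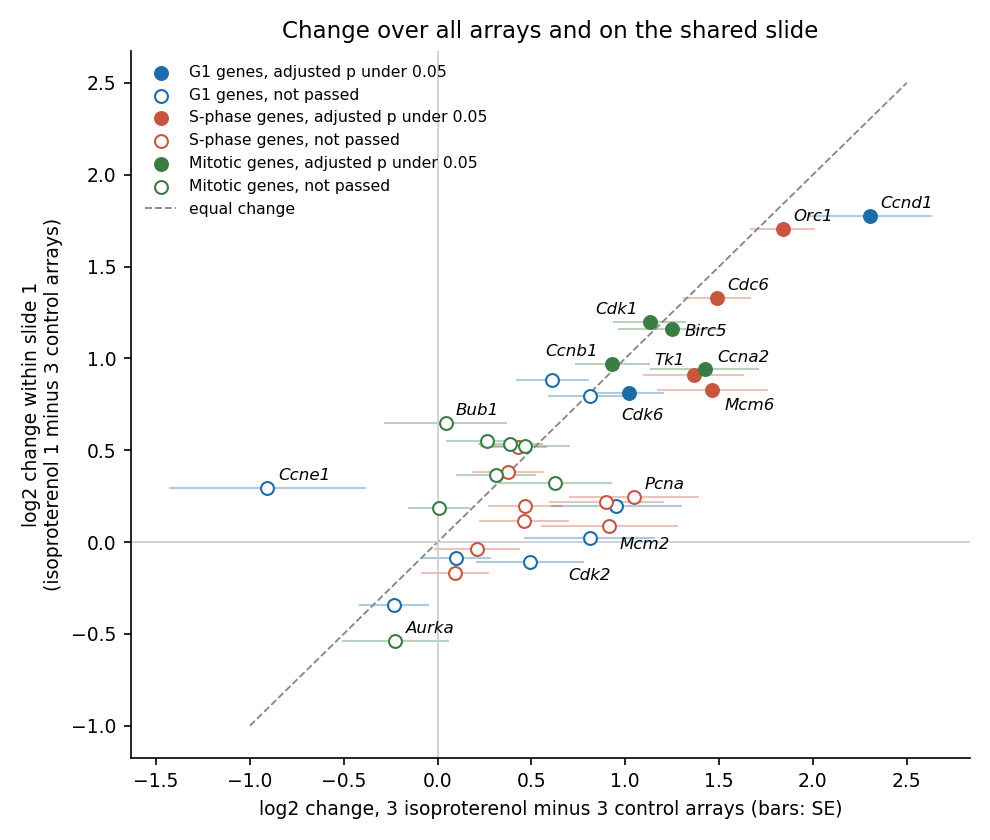
Log2 change of each gene over all 6 arrays (horizontal axis, bars are the SE) against its change within slide 1 (vertical axis, isoproterenol 1 minus the mean of 3 controls). Filled points have an adjusted p under 0.05 over all arrays, and the dashed line marks equal change. Orc1, Cdc6, Cdk1, Ccnb1 and Birc5 lie near the line, while Pcna, Mcm2 and Cdk2 lie below it.

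Ccnd1, of G1, had the largest change of the 35 genes. Ccnd1, the cyclin that links growth signals to Cdk4 and Cdk6, read 2.07, 1.29 and 1.24 in controls 1 to 3 and 3.30, 4.17 and 4.04 in isoproterenol 1 to 3. All 3 treated arrays were above every control, and the change of 2.31 ± 0.33 is 4.95-fold (limma, adjusted p = 0.00898). Within slide 1 it was 1.77 (limma, adjusted p = 0.0731). Cdk6, one of its kinase partners, read 0.74, 0.53 and 0.55 in controls 1 to 3 and 1.42, 1.62 and 1.84 in isoproterenol 1 to 3. These groups did not overlap either, with a change of 1.02 ± 0.18 (limma, adjusted p = 0.0155) and 0.81 within slide 1 (adjusted p = 0.0644). Cdk4, the other partner, read 0.40, 0.13 and 0.49 in controls 1 to 3 and 0.25, 0.55 and 0.51 in isoproterenol 1 to 3, and its groups overlapped with a change of 0.10 ± 0.18 (-0.09 within slide 1). The paralogs of Ccnd1 did not pass (limma, adjusted p = 0.253 for Ccnd2 and 0.387 for Ccnd3). Ccnd2 read 3.24, 2.90 and 3.06 in controls 1 to 3 and 2.96, 3.98 and 3.74 in isoproterenol 1 to 3, where isoproterenol 1 lay among the controls and both slide 2 arrays above them, with a change of 0.49 ± 0.29 (-0.11 within slide 1). Ccnd3 read -0.97, -1.41 and -1.19 in controls 1 to 3 and -1.54, -1.32 and -1.42 in isoproterenol 1 to 3, and its groups overlapped with a change of -0.23 ± 0.18 (-0.34 within slide 1).

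The E-type cyclins act with Cdk2 at entry into S phase. Ccne2 read -0.99, -0.78 and -0.80 in controls 1 to 3 and 0.03, -0.29 and -0.47 in isoproterenol 1 to 3. The groups did not overlap, and its change was 0.61 ± 0.19 over all arrays (limma, adjusted p = 0.0720) and 0.88 within slide 1 (adjusted p = 0.0581), where isoproterenol 1 was the highest of all arrays. With the slide as a term the change was the same and the adjusted p from limma 0.0460. Ccne1 read -3.52, -3.59 and -3.62 in controls 1 to 3 and -3.28, -4.62 and -5.55 in isoproterenol 1 to 3, and only isoproterenol 1 of the treated arrays was well above background, and the change was -0.91 ± 0.52 (0.29 within slide 1). Cdk2 read 1.00, 1.27 and 1.08 in controls 1 to 3 and 1.14, 2.49 and 2.15 in isoproterenol 1 to 3, and E2f1, an activating E2F factor, read 2.46, 2.59 and 2.82 in controls 1 to 3 and 2.82, 4.19 and 3.72 in isoproterenol 1 to 3. For both, isoproterenol 1 lay within or at the top of the control range and both slide 2 arrays above all controls, and neither passed (limma, adjusted p = 0.146 for Cdk2 and 0.103 for E2f1). Their changes were 0.81 ± 0.35 and 0.95 ± 0.35, and 0.02 and 0.20 within slide 1. Myc, a growth-promoting transcription factor, read -1.81, -2.41 and -2.49 in controls 1 to 3 and -1.44, -1.51 and -1.32 in isoproterenol 1 to 3. All treated arrays were above the controls, with a change of 0.81 ± 0.23 that missed the threshold (limma, adjusted p = 0.0529) and 0.80 within slide 1.

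Of the S-phase genes, Orc1 and Cdc6, which license origins, passed both over all arrays and within slide 1. Orc1, the largest subunit of the origin recognition complex, read -2.48, -2.69 and -2.76 in controls 1 to 3 and -0.94, -0.66 and -0.80 in isoproterenol 1 to 3. Every treated array was above every control, the change of 1.84 ± 0.17 is 3.58-fold (limma, adjusted p = 0.00334), and within slide 1 it was 1.70 (adjusted p = 0.0332). Cdc6, which joins that complex to load the helicase, read -3.42, -3.52 and -3.26 in controls 1 to 3 and -2.08, -1.71 and -1.95 in isoproterenol 1 to 3. The groups were again far apart, by 1.49 ± 0.18 or 2.81-fold (limma, adjusted p = 0.00611) and by 1.33 within slide 1 (adjusted p = 0.0384). Orc1 and Cdc6 passed under all 18 alternative settings run, of which no filter on dim probes and probe averaging could not alter their changes. Cdt1, the third licensing factor, read -0.69, -0.91 and -0.70 in controls 1 to 3 and -0.81, -0.12 and -0.74 in isoproterenol 1 to 3. Its groups overlapped, with isoproterenol 2 alone above the controls and a change of 0.21 ± 0.23 (-0.04 within slide 1).

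Of the helicase subunits tested, Mcm6 passed and Mcm2, Mcm3, Mcm4 and Mcm7 did not, and the differences between subunits were not tested. Mcm6 read 3.67, 3.55 and 3.77 in controls 1 to 3 and 4.49, 5.61 and 5.27 in isoproterenol 1 to 3. All treated arrays were higher, isoproterenol 1 by 0.83 over the control mean (limma, adjusted p = 0.0621 within slide 1) and the slide 2 arrays by a further 0.95 on average, which gave 1.46 ± 0.30 in all (2.76-fold; limma, adjusted p = 0.0224). Mcm7 read 3.23, 3.34 and 3.29 in controls 1 to 3 and 3.50, 4.66 and 4.38 in isoproterenol 1 to 3, and Mcm2 read 2.88, 2.87 and 3.18 in controls 1 to 3 and 3.06, 4.49 and 4.13 in isoproterenol 1 to 3. In Mcm7 the groups did not overlap and in Mcm2 isoproterenol 1 lay within the control range, and the slide 2 arrays exceeded isoproterenol 1 by 1.02 and 1.24. Their changes of 0.90 ± 0.31 and 0.92 ± 0.37 did not pass (limma, adjusted p = 0.0865 and 0.125), and within slide 1 they were 0.22 and 0.09. Mcm3 read -2.31, -2.43 and -2.44 in controls 1 to 3 and -1.88, -2.01 and -2.01 in isoproterenol 1 to 3. Here isoproterenol 1 was the highest array and the groups did not overlap, but the change of 0.43 ± 0.16 did not pass (limma, adjusted p = 0.10; 0.51 within slide 1). Mcm4 read 0.21, 0.10 and 0.47 in controls 1 to 3 and 0.46, 0.85 and 0.88 in isoproterenol 1 to 3, with isoproterenol 1 just below the highest control and a change of 0.47 ± 0.20 (0.20 within slide 1).

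Pcna, the sliding clamp of DNA polymerases, read 5.23, 5.35 and 5.41 in controls 1 to 3 and 5.57, 6.90 and 6.65 in isoproterenol 1 to 3. The groups did not overlap, yet the change of 1.05 ± 0.35 was 0.24 within slide 1, and over all arrays it did not pass (limma, adjusted p = 0.0818). Tk1, which salvages thymidine and is known to peak in S phase, read 0.86, 1.30 and 0.89 in controls 1 to 3 and 1.93, 2.81 and 2.40 in isoproterenol 1 to 3. It rose by 1.37 ± 0.27 or 2.58-fold (limma, adjusted p = 0.0204), with 0.91 within slide 1 (adjusted p = 0.0949). Of the de novo nucleotide genes Tyms, Rrm2 and Rrm1 did not pass. Tyms, thymidylate synthase, read 0.77, 1.09 and 1.09 in controls 1 to 3 and 1.09, 1.84 and 1.39 in isoproterenol 1 to 3, so isoproterenol 1 barely exceeded controls 2 and 3 and both slide 2 arrays were higher, with a change of 0.46 ± 0.24 (0.11 within slide 1). Rrm2, the small subunit of ribonucleotide reductase, read -1.49, -1.12 and -1.15 in controls 1 to 3 and -0.87, -0.69 and -1.08 in isoproterenol 1 to 3, with no overlap and a change of 0.37 ± 0.19 (limma, adjusted p = 0.207; 0.38 within slide 1). Rrm1, its large subunit, read 2.25, 2.29 and 2.37 in controls 1 to 3 and 2.14, 2.54 and 2.52 in isoproterenol 1 to 3, with isoproterenol 1 below all controls and a change of 0.09 ± 0.18 (-0.17 within slide 1).

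Among the mitotic genes Cdk1, Ccnb1, Ccna2 and Birc5 rose. Cdk1, the kinase that drives mitotic entry, read 0.33, 0.81 and 0.33 in controls 1 to 3 and 1.69, 1.62 and 1.55 in isoproterenol 1 to 3. The 3 treated arrays lay close together (SD 0.07) and above every control, and the change was 1.13 ± 0.19 or 2.19-fold (limma, adjusted p = 0.0139) and 1.20 within slide 1 (adjusted p = 0.0700). Ccnb1, a cyclin of Cdk1, read -1.11, -0.56 and -0.93 in controls 1 to 3 and 0.10, 0.15 and -0.05 in isoproterenol 1 to 3. It rose by 0.93 ± 0.20 (limma, adjusted p = 0.0256), with 0.97 within slide 1 (adjusted p = 0.0994). Ccnb2, its paralog, read 2.54, 3.52 and 2.78 in controls 1 to 3 and 3.27, 3.91 and 3.53 in isoproterenol 1 to 3, where control 2 exceeded isoproterenol 1 and the change of 0.62 ± 0.30 did not pass (limma, adjusted p = 0.186; 0.32 within slide 1). Ccna2, the cyclin of S phase and mitotic entry, read -2.71, -2.07 and -2.73 in controls 1 to 3 and -1.56, -0.80 and -0.88 in isoproterenol 1 to 3. It rose by 1.42 ± 0.29 or 2.68-fold (limma, adjusted p = 0.0222), with 0.94 within slide 1 (adjusted p = 0.151). Birc5, survivin, a subunit of the chromosomal passenger complex, read -3.03, -2.17 and -3.14 in controls 1 to 3 and -1.62, -1.35 and -1.63 in isoproterenol 1 to 3. It rose by 1.25 ± 0.29 (limma, adjusted p = 0.0313), with 1.16 within slide 1 (adjusted p = 0.170), and control 2 was the control nearest to the treated arrays.

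Of the mitotic genes, Mki67, Aurkb, Aurka, Bub1, Bub1b, Plk1 and Cdc20 also did not pass. Mki67, the marker known as Ki-67, read -2.69, -2.69 and -2.68 in controls 1 to 3 and -2.50, -2.83 and -2.70 in isoproterenol 1 to 3, and its change was 0.01 ± 0.17 (0.18 within slide 1). The groups overlapped, and isoproterenol 1 was the highest array. Aurkb, the kinase of the chromosomal passenger complex, read -1.88, -1.89 and -2.08 in controls 1 to 3 and -1.42, -1.75 and -1.52 in isoproterenol 1 to 3. Its groups did not overlap, but the change of 0.39 ± 0.17 did not pass (limma, adjusted p = 0.159; 0.53 within slide 1). Aurka, the kinase of centrosomes and the spindle, read -3.44, -2.90 and -3.12 in controls 1 to 3 and -3.69, -3.61 and -2.83 in isoproterenol 1 to 3, with 2 treated arrays below all controls and a change of -0.23 ± 0.28 (-0.54 within slide 1). Bub1 and Bub1b, both of the spindle checkpoint, differed by 0.04 ± 0.33 and 0.47 ± 0.24, and within slide 1 by 0.65 (limma, adjusted p = 0.245) and 0.52 (adjusted p = 0.299). In Bub1 isoproterenol 1 was the highest array at 0.43 and isoproterenol 2 the lowest at -0.68. Plk1, a kinase of mitotic entry and exit, differed by 0.26 ± 0.22 and Cdc20, an activator of the anaphase-promoting complex, by 0.31 ± 0.21, with 0.55 and 0.36 within slide 1, and the groups overlapped in both.

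Among the mitotic genes control 2 was mostly the highest control. It held the highest of the 3 control values in 10 of 12 mitotic genes, beside 3 of 13 S-phase genes, 2 of 10 G1 genes and 32.1% of all genes tested. The median mitotic gene lay at 0.31 relative to its control mean in control 2, and at -0.24 and -0.10 in controls 1 and 3. In Ccnb2, Birc5 and Ccna2 the SD of the 3 controls was 0.51, 0.53 and 0.38, against 0.11 in Mcm6 and 0.05 in Mcm7. With control 2 left out, 2 mitotic genes passed, and with control 1 or control 3 left out 0 passed (limma; 4 with all arrays). The share of all genes called higher also dropped, to 1.37% without control 2, 4.25% without control 1 and 1.02% without control 3. With all arrays it was 10.1%.

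The gap between the treated arrays of both slides differed with the signal of the probe. All genes were divided by control signal into 5 bands of equal size. The median of isoproterenol 2 and 3 minus isoproterenol 1 over all genes was -0.03, -0.29, -0.02, 0.23 and 0.49 from the dimmest band to the brightest, and 5.91%, 6.96%, 9.66%, 13.4% and 14.4% of genes were called higher. Of the S-phase genes 5 of 13 lay in the brightest band, beside 2 of 10 G1 and 1 of 12 mitotic genes. The median gap was 0.40 for S-phase, 0.30 for G1 and -0.08 for mitotic genes. Pcna, Mcm2, Mcm7, Mcm6, E2f1 and Ccnd2 had gaps of 1.21, 1.24, 1.02, 0.95, 1.13 and 0.90, all above the median of that band, and Rrm1 and Ccnb2 had 0.39 and 0.46. Orc1 and Cdc6, in the second dimmest band, had gaps of 0.21 and 0.24. The part of the slide in the size of the S-phase changes was not tested beyond these values.

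**Figure D3:**
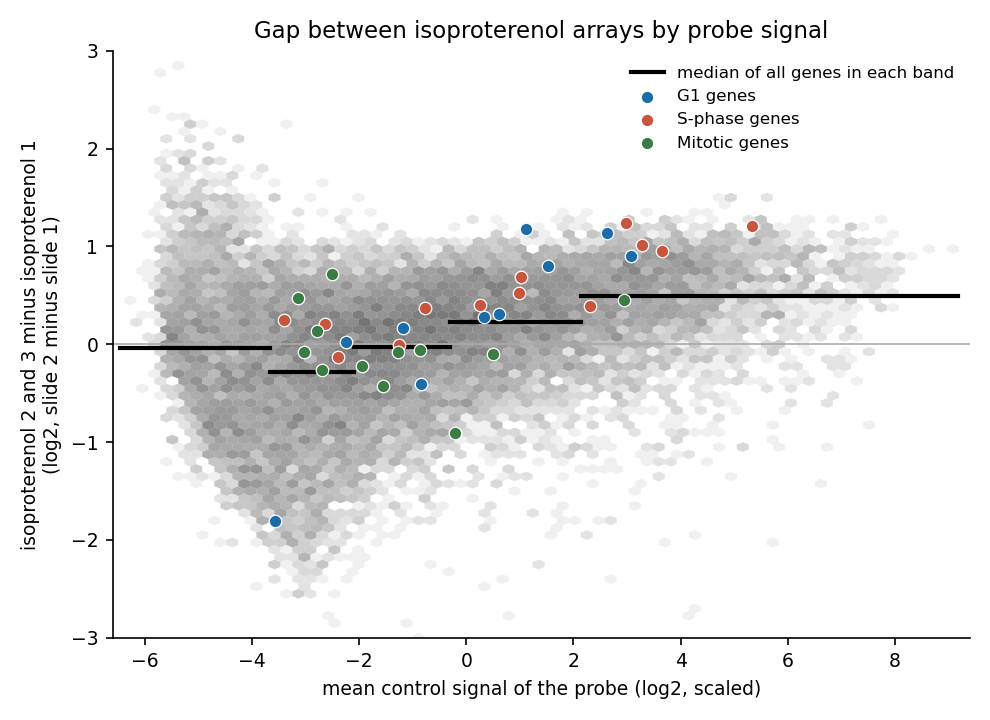
Mean of isoproterenol 2 and 3 minus isoproterenol 1 (vertical axis, log2) against the mean control signal of the probe (horizontal axis, log2, scaled) for all genes tested (grey, darker where more genes fall) and the 35 genes by class (coloured). Black bars are the median of all genes in each of 5 equal bands of control signal, from -0.03 in the dimmest to 0.49 in the brightest, and Pcna and Mcm2 lie above the last bar at 1.21 and 1.24.

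Other genes of the same pathways were read from lists by phase. Of 126 listed, 99 were tested, and 36 rose and 1 fell, beside 10.1% and 5.86% of all genes. The median change of the 99 was 0.62. In the S-phase list 20 of 44 rose and 0 fell, in the mitotic list 14 of 39 rose and 0 fell, and in the G1 list 2 of 16 rose and 1 fell. An unadjusted p under 0.05 was found in 29, 25 and 6 of these, beside the 35.9% of all genes. The medians were 0.72, 0.68 and 0.20. Within slide 1 the medians were 0.51, 0.60 and 0.20, beside 0.11 over all genes. Without control 1, 2 or 3 the number that rose was 8, 4 or 0 of 99, beside 4.25%, 1.37% or 1.02% of all genes. Without isoproterenol 2 or 3 it was 11 or 10, beside 3.44% or 2.14%. Without isoproterenol 1 it was 59, beside 29.3%, and 7 of the 99 fell, beside 4519 of all 19982 genes. Without control 3 the unadjusted p was under 0.05 for 47 of the 99 and 24.0% of all genes, and the median change was 0.60.

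Among the other S-phase genes, Cdc7, the kinase that fires licensed origins, rose by 2.22 ± 0.31 (limma, adjusted p = 0.00898; 1.51 within slide 1). It read 1.17, 1.29 and 1.22 in controls 1 to 3 and 2.74, 3.93 and 3.68 in isoproterenol 1 to 3, so every treated array exceeded every control. Pole and Pole2, subunits of the leading-strand polymerase, rose by 1.75 ± 0.25 and 1.60 ± 0.27 (limma, adjusted p = 0.00921 and 0.0134; 1.24 and 1.17 within slide 1). Chek1, the replication checkpoint kinase, rose by 1.67 ± 0.37 (limma, adjusted p = 0.0284; 0.84 within slide 1), and Orc6, another subunit of the origin complex, by 1.45 ± 0.19 (limma, adjusted p = 0.00794; 1.18 within slide 1). Within slide 1 the change was above 0 in 37 of the 44 other S-phase genes, beside 59.0% of all genes. The same held for 36 of 39 other mitotic genes and 11 of 16 other G1 genes.

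Among the other mitotic genes Cdca8, Spc25, Nuf2, Incenp and Ttk had the largest changes of those that passed. Cdca8 and Incenp, which form the chromosomal passenger complex with Birc5 and Aurkb, rose by 1.77 ± 0.31 and 1.46 ± 0.21 (limma, adjusted p = 0.0151 and 0.00952; 1.11 and 1.09 within slide 1). Spc25 and Nuf2, subunits of the Ndc80 complex that holds microtubules, rose by 1.54 ± 0.35 and 1.47 ± 0.21 (limma, adjusted p = 0.0292 and 0.00938; 1.03 and 1.19 within slide 1). Ttk, a checkpoint kinase, rose by 1.37 ± 0.28 (limma, adjusted p = 0.0220; 0.84 within slide 1). Among the other G1 genes Skp2, which targets the inhibitor p27 for degradation, rose by 1.81 ± 0.26 and E2f3, an activating E2F factor, by 0.92 ± 0.17 (limma, adjusted p = 0.00953 and 0.0177; 1.27 and 0.98 within slide 1). Tfdp2, a dimer partner of E2F factors, fell by 0.99 ± 0.22 (limma, adjusted p = 0.0288; -1.22 within slide 1) and read -0.92, -0.44 and -0.63 in controls 1 to 3 and -1.88, -1.34 and -1.74 in isoproterenol 1 to 3.

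**Figure D4:**
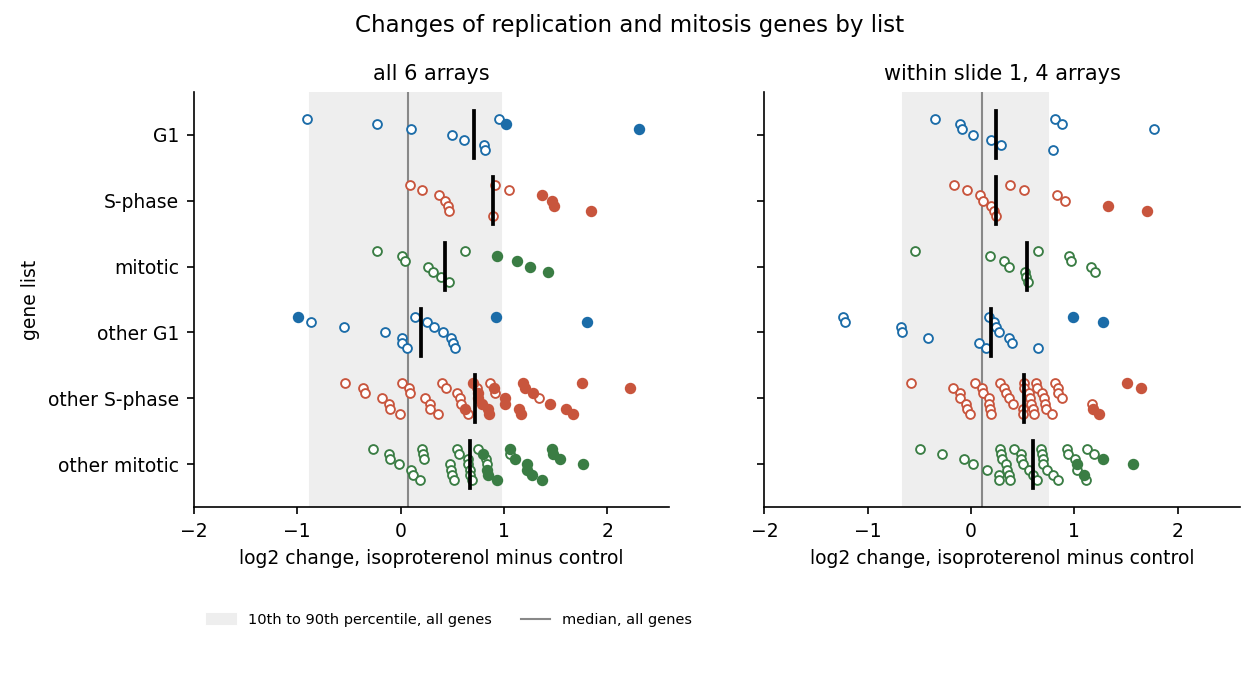
Log2 change of each gene with isoproterenol over all 6 arrays (left) and within slide 1 (right), by list. Filled points have an adjusted p under 0.05 in that comparison, black bars are list medians, the grey band spans the 10th to 90th percentile of all genes and the grey line their median. The S-phase median of the 13 listed genes is 0.90 on the left and 0.24 on the right, and that of the 44 other S-phase genes 0.72 and 0.51.

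Markers of the cell types in such cultures moved with the treatment in part. All 11 cardiomyocyte markers tested, Myh6, Tnnt2 and Actc1 among them, were well above background on all 6 arrays, and over all arrays Myh6 rose, by 1.23 ± 0.23, and 0 fell (limma; unadjusted p under 0.05 in 4). Within slide 1 0 rose and Pln and Mybpc3 fell, and Myh6 differed by 0.82. The median change of this list was 0.34 over all arrays and 0.09 within slide 1, and with quantile normalization it was -0.20, with 0 higher and Pln lower. Their mean scaled signal, as log2, was 7.49 to 7.83 in controls and 7.83 to 8.48 with isoproterenol. Of 12 fibroblast markers, the cells left by pre-plating, 2 rose (Thy1, Ddr2) and 4 fell (Col3a1, Lum, Postn, Tcf21), beside 10.1% and 5.86% of all genes. An unadjusted p under 0.05 (limma) was found in 10 of the 12, beside 35.9% of all genes. The 3 treated arrays lay above all controls in 5 and below them in 6, beside 25.6% and 15.8% of all genes. The mean signal of these markers was 3.72 to 3.80 in controls and 3.49 to 3.92 with isoproterenol, and 11 were well above background on all arrays. Within slide 1 0 rose and Col3a1 and Postn fell, and the median change was -0.77 against -0.43 over all arrays. Of 6 smooth muscle and pericyte markers 2 rose, Acta2 by 1.91 ± 0.50 and Tagln by 1.77 ± 0.34. Young cardiomyocytes also express both, and which cells the rise came from was not tested. The mean signal of the 6 markers was 3.80 to 4.63 in controls and 5.18 to 6.37 with isoproterenol. Within slide 1 0 of these 6 passed (unadjusted p under 0.05 in 1), and Acta2 and Tagln differed by 1.16 and 1.03. Of 8 endothelial markers 0 rose and Kdr fell (unadjusted p under 0.05 in 3), with a mean signal of 0.94 to 1.11 in controls and 0.85 to 1.00 with isoproterenol. Of 5 macrophage and leukocyte markers Cd14 rose and 0 fell (unadjusted p under 0.05 in 1), with 1.48 to 2.20 and 1.72 to 2.10. Within slide 1 Kdr fell and 0 of the other endothelial, macrophage and leukocyte markers passed (unadjusted p under 0.05 in 3 and 1). Of these last 3 lists 5 of 6, 5 of 8 and 4 of 5 markers were well above background on all arrays. In bulk RNA, a change in the number of cells of a type and a change in RNA per cell cannot be told apart, and the part of other cells in the replication and mitosis values was not tested.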

How the data were processed

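RNA of 6 samples was measured on one-colour (Cy3) Agilent arrays. Per the file headers, the deposited scanner data are linear intensities (intensity units) from Feature Extraction 11.0.1.1, background-subtracted, for 43040 spots per array of a design on build RGSCv3.4. The authors also deposited an mRNA table of log2 values. On the slide 1 arrays these lay close to quantile-normalized log2 intensities, with a 95th percentile of absolute differences of at most 0.0023. On isoproterenol 2 and 3 that percentile was 0.48 and 0.24, so the table departed from quantile-normalized values there. The tool behind that table is not given in the sources used. Scanner files carry design numbers only, so the 20734 table rows were matched to probes by value (20680 matched, 0 of 20679 neighbouring pairs out of spot order), and names came from RefSeq through transcript accessions (13956 of 14757 matched). The 5977 Ensembl rows stayed unnamed, and those tested each counted as a gene of its own in the shares of all genes.

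Control and outlier spots were left out, log2 processed signals were scaled to each array's 75th percentile, probes well above background on at least 3 arrays were kept and each gene took its brightest probe. Isoproterenol was compared with control by limma 3.58.1 (R 4.3.3; lmFit, eBayes, Benjamini-Hochberg), which was tested on simulated data. Normexp used median signals in place of the planned mean signals, for which no column was found. Genes named from the other pathway lists were up to 5 per list with the largest changes among those that passed. Precision is limited by the number of arrays, the slide difference and, for dim probes, signal over background. The genes, lists and tests were chosen with earlier results of these data known. Alternatives covered scaling, background correction, the filter, probe averaging, the deposited table, the variance trend, slide and replicate blocks and leaving out each array.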

Additional observations from a re-analysis of the deposited data

How the results depend on the processing

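All 10 genes called higher kept their direction under each of the 18 alternatives, and 10 of 10 stayed past the threshold under quantile normalization, median scaling, normexp, no filter on dim probes, the stricter filter, the deposited table, probe averaging and the variance trend. No filter left the same 19982 genes, and probe averaging left the changes of these 10 as they were, so neither setting could alter their changes. With the 75th percentile taken over probes detected on all arrays 8 of the 10 passed, without Ccnb1 and Birc5, and 2 mitotic genes in all. That scaling moved the median change of all genes to -0.17 (0.07 in the comparison as reported) and the share of higher among called genes to 41.1% (63.2%), and normexp moved them to 0.37 and 73.7%. With the slide as a block 1415 of all genes, 5 of the 35, 2 S-phase and 1 mitotic gene passed, and within slide 1 it was 1008, 2, 0 of G1, 2 of S phase and 0 of mitosis. The stricter filter and the variance trend each called 4 G1 genes. Leaving out 1 array gave 363 to 10373 of all genes in either direction, with the highest count where isoproterenol 1 was left out. Called higher were 2 to 21 of the 35, 0 to 7 of G1, 2 to 10 of S phase and 0 to 4 of mitosis. The replicate block, with numbers that did not pair the samples (correlations of same-numbered deviations of 0.0085, 0.0512 and -0.0259), called 1441 of all genes, 7 of the 35 and 1 of G1. Signal over background limits dim probes on slide 2, such as that of Ccne1. The direction of Ccne1 and Aurka changed with the background correction. Under normexp their changes were 0.51 and 0.36, against -0.91 and -0.23 in the comparison as reported.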
